A study of Mus musculus with 5 samples.

Results

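The motile cilia genes are the protein-coding genes whose symbols name axonemal dynein heavy chains (Dnah), cilia and flagella associated proteins (Cfap), radial spoke heads (Rsph) or tektins (Tekt), together with Foxj1, Ccdc153, Tmem212, Ak7, Spag16, Spag17, Hydin, Ccdc39 and Ccdc40. They were chosen by name in the GENCODE M21 annotation, and 68 of the 47729 genes in the table were members: 15 Dnah, 31 Cfap, 8 Rsph and 5 Tekt genes and the 9 genes named singly. RNA sequencing was carried out on brain of the C57BL/6 strain, from 5 males at 30 months of age, with an mRNA library kit from total RNA. All 5 belong to 1 group, with no treatment or transgene named in the labels, and carry the sample numbers 7, 8, 9, 10 and 11, in which order values are listed. With no other age or treatment analysed here, the questions are how strongly each gene was expressed in the aged brain and how far the brains differed.

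Motile cilia are built on an axoneme of outer doublet microtubules around a central pair. Dynein motors on the doublets, in an outer and an inner row of arms, slide the doublets past each other, and radial spokes and the central apparatus control the beat. In the brain, multiciliated ependymal cells line the ventricles and move the cerebrospinal fluid, and Foxj1, with the RFX factors that bind the X-box motif, switches on the genes of the motile axoneme. In bulk brain RNA, fewer ependymal cells and less RNA per cell cannot be told apart.

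Promoter sequences are shown first, because the X-box is a named element through which RFX factors act on such genes. The motif searched had 14 letters, the 7 letters GTTGCCA followed by their reverse complement, so that it reads the same on both strands, and it was looked for in the 250 bases before each RefSeq transcription start on the GRCm38.p6 build. RefSeq promoters were matched for 56 of the 68 genes, with 63 starts. A match with at most 3 mismatches was present in 13 of the 63 promoters (20.6%), against 2.74% of all 32851 promoters of the same length. With at most 2 mismatches there were 6 (9.52% against 0.971%), and with at most 1 mismatch 2 (3.17% against 0.228%). No promoter of a member held the motif without a mismatch. A match is a description of letters and not a measured binding site.

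The best matches and those of Ccdc153, Spag16 and Tekt1 are given 5′ to 3′ on the strand of the gene, with the 14 bases of the match in capitals.
Cfap44, chr16:44394754-44394798, plus strand: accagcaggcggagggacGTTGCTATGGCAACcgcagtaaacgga
Cfap97d2, chr8:13705844-13705888, plus strand: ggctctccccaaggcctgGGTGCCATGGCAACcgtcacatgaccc
Cfap161, chr7:83794855-83794904, minus strand: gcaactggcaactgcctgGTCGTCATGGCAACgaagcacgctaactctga
Cfap298, chr16:90935006-90935055, minus strand: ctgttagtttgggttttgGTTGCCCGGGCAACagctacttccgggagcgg
Cfap45, chr1:172521093-172521129, plus strand: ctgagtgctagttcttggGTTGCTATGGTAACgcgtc
Hydin, chr8:110266938-110266976, plus strand: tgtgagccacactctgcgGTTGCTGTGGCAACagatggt
Ccdc153, chr9:44240507-44240556, plus strand: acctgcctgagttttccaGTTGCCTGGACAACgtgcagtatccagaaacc
Spag16, chr1:69826849-69826898, plus strand: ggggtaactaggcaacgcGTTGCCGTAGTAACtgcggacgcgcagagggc
Tekt1, chr11:72361883-72361915, minus strand: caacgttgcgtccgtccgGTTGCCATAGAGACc

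Cfap44 and Cfap97d2 had 1 mismatch to the motif, the next 4 had 2 and the last 3 had 3. In Cfap44 and Cfap97d2 the match lay 27 to 14 bases before the start, and in Hydin 21 to 8. The other 4 genes with a match were Cfap20, Cfap36, Cfap52 and Cfap126. Among the 13 were Cfap20, Cfap45, Cfap52, Cfap126 and Cfap161, which code for microtubule inner proteins of the doublets. Cfap77, which codes for another protein of that kind, had 5 mismatches. The tektins, also within the doublet, had at best 3 mismatches in Tekt1, 4 in Tekt3 and Tekt5 and 5 in Tekt2 and Tekt4. The forkhead motif TGTTTAC, searched on both strands and not overlapping the X-box in its letters, was in 5 of the 63 promoters (7.94%) against 3.17% of all. Those 5 were of Ak7, Cfap20, Cfap43, Dnah17 and Tekt3.

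The libraries held between 15392006 and 18723390 counts, the most in mouse 11, and between 22686 and 24708 genes had a count. Marker lists of neurons (summed 1913 to 2234 RPKM) and astrocytes (1225 to 1435 RPKM) were present in every library. Across all genes the libraries differed with GC content and gene length. The 1356 genes of lowest GC content lay at a median of 0.43 on the log2 scale above their 5-mouse mean in mouse 7 and at -0.43 in mouse 11, while the 1356 of highest GC content lay at -0.15 and 0.62. Which brain was highest or lowest for a gene was read from log2 CPM with TMM scaling, which can differ from the RPKM where values are close, as for Cfap43. Values are given both as counted and corrected for GC and length, that is, with these trends taken out of each library. Errors are SDs over the 5 brains (n = 5 throughout), and since the labels give sample numbers only, the spread may in part be technical.

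Most of the motile cilia genes were detected at a low level. All 68 had at least 1 count, and 64 had a count in every brain. A mean count of at least 10, below which a gene was not tested, was reached by 56 of 68, and by 65.7% of the 21697 protein-coding genes. Levels are in RPKM, counts scaled to gene length and library total, which allows genes of different length to be compared. A mean RPKM of at least 1 was reached by 21 of 68, against 55.5% of protein-coding genes, and 35 lay below 0.5. The median member stood at 0.479 RPKM and the median protein-coding gene at 1.74.

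**Figure D1:**
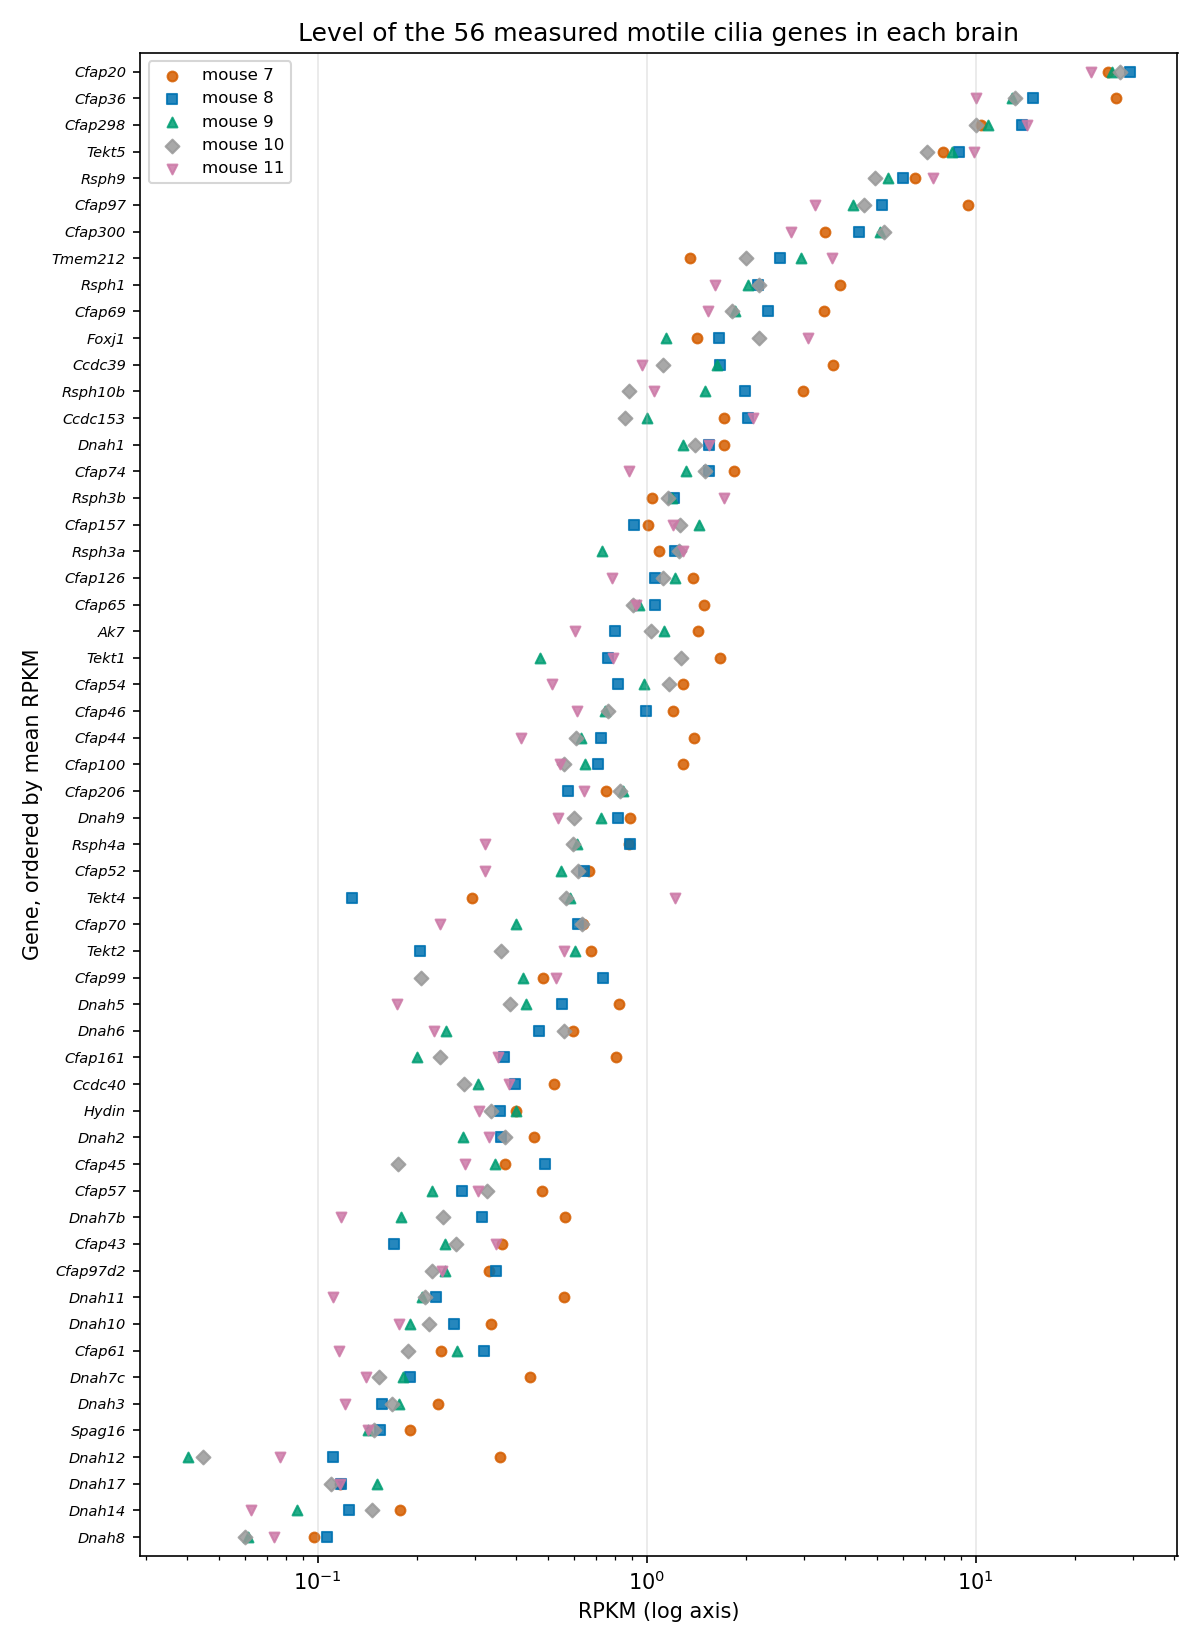
RPKM (log axis) of the 56 motile cilia genes at a mean count of at least 10, 1 row per gene in order of mean RPKM and 1 symbol per brain. Levels run from Cfap20 at a mean of 26.1 RPKM to Dnah8 at 0.0798, and the circle of mouse 7 lies furthest right for many of the genes.

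Foxj1, the transcription factor that directs motile ciliogenesis, had 1.42, 1.66, 1.14, 2.19 and 3.09 RPKM in mice 7 to 11, a mean of 1.90 ± 0.769. The maximum was in mouse 11 and the minimum in mouse 9, a range of 2.71 times. Its transcript was the richest in GC of the 68 (61.4%), and with GC and length corrected for mouse 10 was highest. Foxj1 lies on chromosome 11 from 116330704 to 116335399 on the minus strand.

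Tmem212, a membrane protein gene used as an ependymal marker, had 1.35, 2.54, 2.94, 2.00 and 3.65 RPKM, a mean of 2.50 ± 0.881. Mouse 7 had the least of it and mouse 11 the most. Ccdc153, another ependymal marker, had 1.72, 2.03, 0.999, 0.861 and 2.11 RPKM, a mean of 1.54 ± 0.583. It was also highest in mouse 11 but lowest in mouse 10. Ccdc153 would stand at 0.824 RPKM with the exon length of the M21 annotation, since the authors' lengths differ there. Both kept their highest value in mouse 11 after that correction. Ak7, an adenylate kinase that balances the nucleotides used by the motors and whose loss disturbs ciliary beating, had 1.43, 0.798, 1.13, 1.03 and 0.604 RPKM, a mean of 1.0 ± 0.318. Ak7 had its maximum in mouse 7 and its minimum in mouse 11, the reverse of Tmem212.

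**Figure D2:**
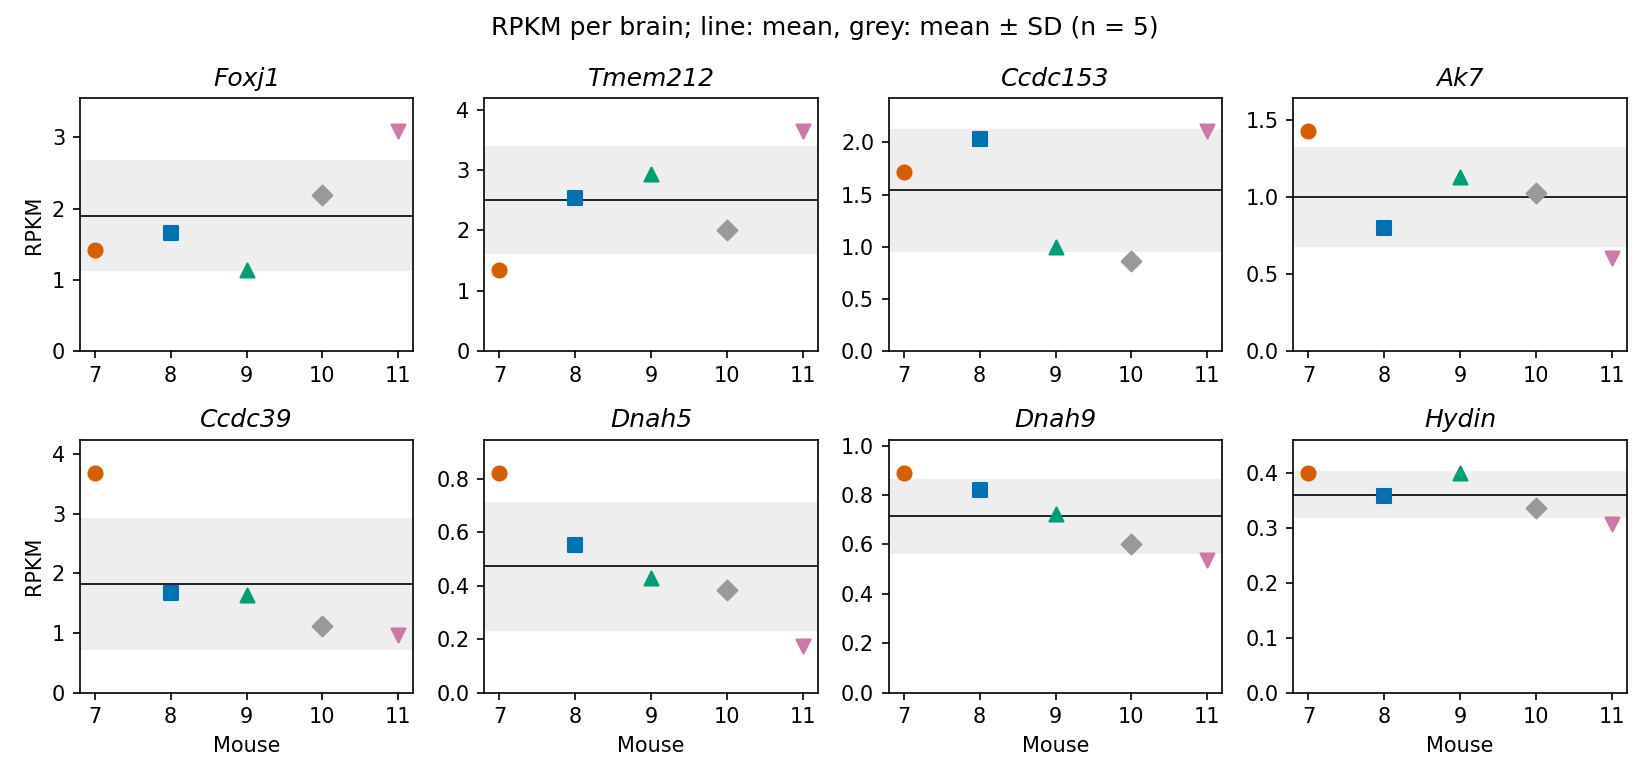
RPKM of 8 motile cilia genes in each of the 5 brains (axes start at 0), with the mean as a line and the mean ± SD in grey. Foxj1, Tmem212 and Ccdc153 are highest in mouse 11 (3.09, 3.65 and 2.11), and Ak7, Ccdc39, Dnah5 and Dnah9 are highest in mouse 7 (1.43, 3.69, 0.823 and 0.891).

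The outer dynein arms supply most of the beat's power. Dnah9, a heavy chain of the outer arms and the highest of the 5 outer arm genes, had 0.891, 0.819, 0.724, 0.602 and 0.536 RPKM, a mean of 0.714 ± 0.147. Dnah5, the heavy chain whose loss in mice removes outer arms and causes hydrocephalus, had 0.823, 0.553, 0.429, 0.383 and 0.174 RPKM, a mean of 0.472 ± 0.239. Both genes had the same order of the 5 brains, from mouse 7 as the highest to mouse 11 as the lowest, and the range was 4.72 times for Dnah5 and 1.66 for Dnah9. Dnah11, an outer arm chain of the base of the cilium, had 0.560 RPKM in mouse 7 and 0.229, 0.207, 0.211 and 0.111 in the others, and its SD on the log2 scale (0.79) was the largest of the outer arm group. It shares 642 exon bases with Cdca7l on the opposite strand, a gene at a mean of 13.4 counts. Dnah17 and Dnah8, the heavy chains best known from sperm tails, were lowest, at 0.123 ± 0.0163 and 0.0798 ± 0.0213 RPKM. Dnah8 had 0.0972, 0.107, 0.0614, 0.0599 and 0.0734 RPKM, and Dnah17 was highest in mouse 9 (0.151, others 0.110 to 0.118). The level of Dnah8 falls to 0.0433 RPKM with the M21 exon length.

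The inner arms shape the bend of the cilium. Dnah1 was the highest dynein heavy chain gene, with 1.72, 1.55, 1.29, 1.4 and 1.54 RPKM, a mean of 1.5 ± 0.163, and its brains differed by no more than 1.33 times. Dnah12 was the lowest measured inner arm gene, with 0.359 RPKM in mouse 7 and 0.111, 0.0402, 0.0449 and 0.0770 in the others, from 62, 19, 7, 8 and 16 counts. Its SD on the log2 scale was 1.20, the largest of the 56 measured members, and mouse 7 lay 8.92 times above mouse 9. Dnah2 and Dnah10, chains of the inner arm that carries both in 1 complex, had 0.359 ± 0.0649 and 0.236 ± 0.0643 RPKM. Dnah6 and Dnah3 had 0.420 ± 0.174 and 0.171 ± 0.0403 RPKM. Dnah3 shares 1506 exon bases with Lyrm1 on the opposite strand, whose RPKM of 1.14 to 1.29 varied little.

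Dnah7b and Dnah7c, copies of an inner arm gene side by side on chromosome 1, had 0.284 ± 0.174 and 0.222 ± 0.126 RPKM. In mouse 7 they stood at 0.566 and 0.443 RPKM, and in mouse 11 at 0.118 and 0.140. The 3 copies Dnah7a, Dnah7b and Dnah7c share 40.3%, 48.4% and 48.5% of their 50-base stretches with another gene, so how reads divide between them is uncertain. Dnah7a held 12, 7, 8, 1 and 4 counts and was not tested. Dnah14, a heavy chain with no arm assigned here, had 0.178, 0.124, 0.0865, 0.146 and 0.0625 RPKM, again with mouse 7 at the top and mouse 11 at the bottom, and it shares 440 exon bases with Lbr on the opposite strand.

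Taken as groups, all 8 measured inner arm genes and 3 of the 5 outer arm genes had their highest value in mouse 7. Over the 14 measured Dnah genes this held for 12, and 9 were lowest in mouse 11. Among all 16318 genes tested, 25% were highest in mouse 7, and 32.7% had their minimum in mouse 11. All 14 Dnah genes were longer than 7000 bases, and among all genes of at least that length the shares were 41.8% and 54.2%. The mean deviation of the 8 inner arm genes from their 5-mouse mean was 0.78 on the log2 scale in mouse 7, 0.10 in mouse 8 and between -0.37 and -0.13 in the other 3. With GC and length corrected for it was 0.58 in mouse 7, with 7 of 8 highest there. Of the 14 Dnah genes 10 were then highest in mouse 7, against 23.3% of all genes, and 6 were lowest in mouse 11, against 25.5%. Among all genes of at least 7000 bases the corrected shares were 27.9% and 29.6%.

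Ccdc39 and Ccdc40 form the molecular ruler along the doublet that places inner arms and radial spokes. Ccdc39 had 3.69, 1.67, 1.63, 1.12 and 0.969 RPKM, a mean of 1.82 ± 1.09, and mouse 7 stood 3.81 times above mouse 11. Ccdc40 had 0.522, 0.398, 0.307, 0.279 and 0.381 RPKM, a mean of 0.377 ± 0.0950, and was highest in mouse 7 by a smaller margin. Ccdc39 lies on chromosome 3 from 33812362 to 33844310 on the minus strand and shares 1256 exon bases with Ttc14 on the other strand. Ttc14 had 15.2, 8.23, 6.95, 6.40 and 4.97 RPKM, the same order of brains as Ccdc39. Whether strand was used in counting is not stated in the labels, so reads of both genes cannot be told apart in the shared stretch.

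The tether and modifier proteins hold and tune the inner arms. Cfap44, part of the tether, was the highest of the 4 measured genes, with 1.39, 0.727, 0.631, 0.609 and 0.415 RPKM, a mean of 0.755 ± 0.374. Cfap44 also had the largest SD of the group on the log2 scale, 0.60. Cfap43, its partner in the tether, was the lowest with the authors' lengths, with 0.362, 0.170, 0.244, 0.263 and 0.349 RPKM, a mean of 0.277 ± 0.0793. With the M21 exon length it stands at 0.391 RPKM, above Cfap57. The partners differed in order, with mouse 11 at the minimum for Cfap44 and near the maximum for Cfap43. Cfap100, of the modifier complex, had 1.29 RPKM in mouse 7 and between 0.544 and 0.709 elsewhere, and Cfap57 had 0.322 ± 0.0967. Over the 4 genes the mean deviation was 0.69 in mouse 7 and from -0.21 to -0.13 in the other 4.

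The 10 radial spoke genes had a median level of 0.923 RPKM, beside 0.236 RPKM over the 15 Dnah genes. Rsph9, a spoke head protein, had 6.54, 6.00, 5.42, 4.94 and 7.43 RPKM, a mean of 6.07 ± 0.973. Rsph1, also of the spoke head, had 3.87 RPKM in mouse 7 and 2.18, 2.03, 2.20 and 1.61 in the others, a mean of 2.37 ± 0.867. Rsph4a, a head protein too and the lowest measured Rsph gene with the authors' lengths, had 0.881, 0.890, 0.612, 0.598 and 0.322 RPKM, a mean of 0.661 ± 0.236. As counted, mouse 11 had the most Rsph9 and the least Rsph1 and Rsph4a. After correction for GC and length, Rsph9 was instead highest in mouse 7, at 0.21 on the log2 scale above its mean. It then stood at -0.01 in mouse 11, where Rsph1 and Rsph4a were still lowest, at -0.68 and -0.52.

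Rsph10b had 2.99, 1.99, 1.5, 0.884 and 1.05 RPKM, a mean of 1.68 ± 0.846, and the largest SD among the spoke genes on the log2 scale (0.68). It shares 85 exon bases with Pms2 on the same strand. Rsph3a and Rsph3b, spoke stalk genes on chromosome 17, had 1.12 ± 0.230 and 1.26 ± 0.265 RPKM. They share 74.0% and 75.8% of their 50-base stretches with another gene, so their separate values are uncertain, and with the M21 exon length Rsph3b stands at 0.654 RPKM, just below Rsph4a. Cfap61 and Cfap206, proteins at the spoke base, had 0.225 ± 0.0772 and 0.729 ± 0.117 RPKM. Cfap61 was the lowest of the 8 measured spoke genes, with 0.237, 0.319, 0.265, 0.188 and 0.116 RPKM. Of the 8 measured, 2 were highest in mouse 7, 2 in mouse 8, 1 in mouse 9 and 3 in mouse 11, where the shares of all genes tested were 25%, 12.3%, 14.1% and 37.6%. Corrected for GC and length, 3 were highest in mouse 7, 2 in mouse 8 and 1 in each of the other 3 brains. The shares of all genes were then 23.3%, 12.3%, 18%, 16.2% and 30.3% in mice 7 to 11.

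The central apparatus surrounds the central pair and signals to the spokes. Hydin, its large projection protein whose mutation causes hydrocephalus in mice, was among the most even members, with 0.400, 0.359, 0.401, 0.336 and 0.308 RPKM, a mean of 0.361 ± 0.0403. Spag16 and Spag17 code for other proteins of the central apparatus. Spag16 had 0.190, 0.154, 0.142, 0.148 and 0.142 RPKM, a mean of 0.155 ± 0.0203 from 15 to 20 counts a library. Spag17 had 0.0832, 0.115, 0.0376, 0.0733 and 0.0189 RPKM from 11, 15, 5, 10 and 3 counts, too few to test, and it shares 820 exon bases with Wdr3 on the opposite strand. Those 3 genes were thus at most at 0.401 RPKM in any brain.

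Cfap69 was the highest central apparatus gene, with 3.46, 2.34, 1.86, 1.81 and 1.53 RPKM, a mean of 2.20 ± 0.762. Cfap74, Cfap65, Cfap54 and Cfap46 followed with means of 1.42, 1.07, 0.955 and 0.863 RPKM, each highest in mouse 7, and Cfap70 had 0.506 ± 0.182. Cfap65 had 1.49 RPKM in mouse 7 and between 0.909 and 1.06 elsewhere. Cfap99 had the largest SD of the group on the log2 scale (0.63), with 0.485, 0.735, 0.421, 0.206 and 0.529 RPKM from 7 to 24 counts. In all, 7 of the 9 measured central apparatus genes peaked in mouse 7, against 25% of all genes tested. For 6 the minimum was in mouse 11, against 32.7%. Among all genes of at least 7000 bases these shares were 41.8% and 54.2%. After the correction 5 of the 9 were highest in mouse 7, against 23.3% of all genes, and 5 were lowest in mouse 11, against 25.5%.

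Microtubule inner proteins and tektins stabilise the doublet from within. Cfap20, a protein of the doublet's inner junction, was the highest member with the authors' gene lengths, with 25.3, 29.5, 26.0, 27.4 and 22.4 RPKM, a mean of 26.1 ± 2.59. That level and rank depend on the gene length. With the M21 exon lengths Cfap20 stands at 7.58 RPKM, below Cfap36 (15.5), Cfap298 (10.2) and Tekt5 (8.45). Cfap126 and Cfap52 had 1.11 ± 0.220 and 0.560 ± 0.140 RPKM. Cfap45 was the lowest measured of the group, with 0.371, 0.489, 0.346, 0.175 and 0.280 RPKM, a mean of 0.332 ± 0.116. Cfap161 had 0.807 RPKM in mouse 7 and 0.367, 0.200, 0.235 and 0.352 in the others, the largest SD of the group (0.74 on the log2 scale). Mouse 7 was highest for 3 of the 5, against 25% of all genes tested, and mouse 8 for the other 2, against 12.3%. After correction 3 were highest in mouse 7, 1 in mouse 8 and 1 (Cfap20) in mouse 10. The shares of all genes were then 23.3%, 12.3% and 16.2%.

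Tekt5 was the highest tektin, with 7.94, 8.88, 8.44, 7.11 and 9.87 RPKM, a mean of 8.45 ± 1.03, and it was the fourth highest member with the authors' lengths and the third with those of M21. Tekt1 had 1.67, 0.761, 0.472, 1.27 and 0.790 RPKM, a mean of 0.991 ± 0.473, and Tekt2 had 0.677, 0.205, 0.605, 0.361 and 0.562, a mean of 0.482 ± 0.194. Tekt2 was the lowest measured tektin with the authors' lengths, and Tekt4 was with those of M21 (0.429 RPKM). Tekt4 had 0.294, 0.127, 0.583, 0.569 and 1.22 RPKM from 7, 3, 14, 14 and 35 counts, with an SD of 1.12 on the log2 scale. As counted, 2 of the 4 measured tektins were highest in mouse 7 and 2 in mouse 11, against 25% and 37.6% of all genes tested. Tekt2 and Tekt4 were lowest in mouse 8, as were 13.5% of all genes. Corrected for GC and length, 2 were highest in mouse 7, 1 (Tekt5) in mouse 9 and 1 (Tekt4) in mouse 11. The shares of all genes were then 23.3%, 18% and 30.3%.

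Several Cfap genes are also expressed in cells without motile cilia. Cfap36, which binds a small GTPase of the primary cilium, had 26.7, 14.9, 12.9, 13.2 and 10 RPKM, a mean of 15.5 ± 6.48. Cfap97 had 9.49, 5.2, 4.22, 4.56 and 3.24 RPKM, a mean of 5.34 ± 2.42, and shares 132 exon bases with Snx25 on the opposite strand. Cfap298, which takes part in dynein arm assembly, had 10.4, 13.8, 10.9, 10 and 14.3 RPKM, a mean of 11.9 ± 2.02. Together with Cfap20 these genes held 32.1% of the members' counts, so the name motile cilia covers their symbols and not a measured restriction to ependyma. Cfap300, another dynein assembly gene, had 3.47, 4.41, 5.13, 5.25 and 2.75 RPKM, a mean of 4.20 ± 1.08, and was highest in mouse 10. Cfap157 and Cfap97d2 had 1.16 ± 0.206 and 0.277 ± 0.0583 RPKM.

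The 12 genes below a mean count of 10 were Cfap73, Cfap299, Cfap221, Cfap53, Rsph14, Cfap77, Spag17, Cfap58, Rsph6a, Cfap97d1, Tekt3 and Dnah7a. Of these, Cfap97d1 had 0, 0, 3, 0 and 0 counts, Tekt3 2, 2, 0, 1 and 0, Rsph6a 2, 3, 2, 1 and 4, and Cfap58 4, 3, 3, 7 and 0. Cfap77 had 3, 9, 0, 4 and 3 counts, Cfap299 7, 5, 1, 6 and 3, Rsph14 5, 3, 5, 11 and 3, and Cfap73 4, 7, 9, 4 and 4. Cfap53 had 6, 4, 12, 7 and 1 counts and Cfap221 had 8, 8, 6, 4 and 12. Where nothing was counted, up to 3 counts remain possible, which is between 0.160 and 0.195 CPM in these libraries, so absence from the brain cannot be read from these values, and such limits cover counting error only.

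Variation between the brains was tested for each gene against genes of similar expression with edgeR's quasi-likelihood dispersions and Benjamini-Hochberg adjustment. It called 0 of the 56 measured members, and 0 of the 16318 genes tested (0%). At an unadjusted p below 0.05 there were 6 members, against 4.82% of all genes tested (786). The 6 were Ccdc39, Dnah12, Dnah7b, Cfap97, Dnah5 and Cfap36, each at an adjusted p of 0.981 in edgeR. All 6 were highest in mouse 7. DESeq2 marked 49 genes (0.3%) as dispersion outliers, of which 0 were members. The median SD of a measured member was 0.44 on the log2 scale, against 0.30 for all genes tested, and 0.37 against 0.23 after correction for GC and length. The members had a lower median level (0.722 against 4.59 RPKM), at which counting error is larger, and its part in that gap was not tested.

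Mouse 7 stood above the other brains over the set as a whole. The summed level was 141, 123, 109, 108 and 105 RPKM, and the summed CPM, counts scaled to the library total, were 516, 385, 335, 340 and 294. The mean deviation of the 56 measured genes was 0.41, 0.03, -0.12, -0.13 and -0.19 on the log2 scale. The SD of that mean over the brains was 0.24, and it was 0.10 without mouse 7. With GC and length corrected for the mean deviations were 0.35, 0.01, -0.10, -0.11 and -0.14. No p-value is attached to these means, since the genes were chosen by name with earlier results of these data known.

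**Figure D3:**
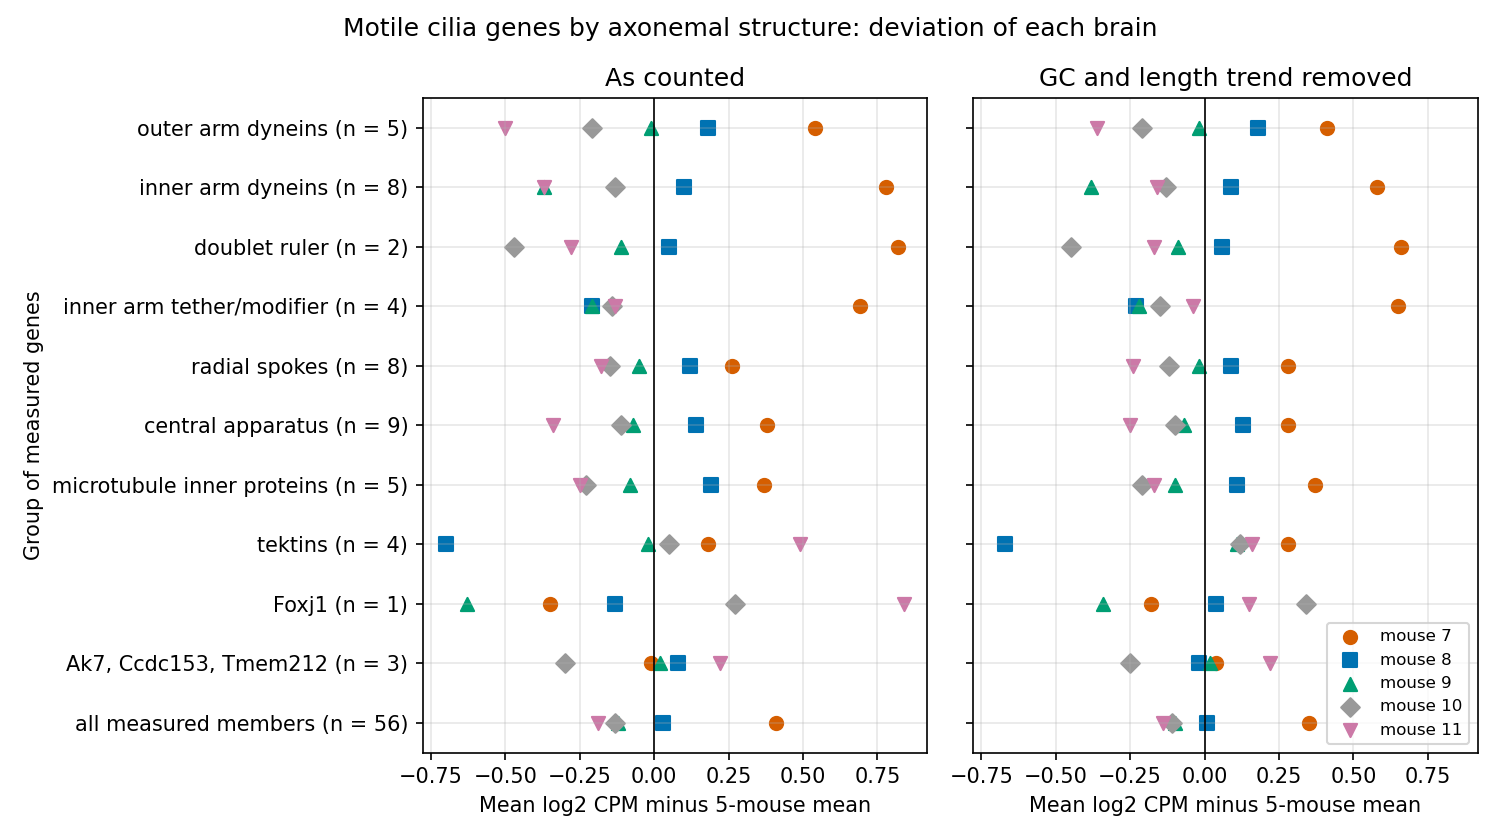
Mean log2 CPM of each group of measured genes in each brain, minus the mean over the 5 brains, as counted on the left and corrected for GC and length on the right. Mouse 7 is furthest right for the inner arm dyneins (0.78 and 0.58) and for all 56 genes (0.41 and 0.35), and mouse 11 is furthest right for Foxj1 on the left panel only (0.84 and 0.15).

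Counted gene by gene, 34 of the 56 (60.7%) were highest in mouse 7, where 25% of all genes tested were, and 27 of 56 (48.2%) were lowest in mouse 11, where 32.7% of all genes were. Both held for 22 genes, and how often both held among all genes was not counted. After correction 31 of 56 (55.4%) were highest in mouse 7, against 23.3%, and 19 of 56 (33.9%) were lowest in mouse 11, against 25.5%. Mouse 11 was the highest brain for 10 of the 56 members, against 37.6% of all genes, among them Foxj1, Tmem212, Ccdc153, Rsph9, Tekt5 and Tekt4. After correction mouse 11 was highest for 6 of 56, against 30.3%. Mouse 7 was the lowest brain for 2 of the 56, Tmem212 and Rsph3b, against 25.4%, and for 4 after correction, against 30.2%.

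**Figure D4:**
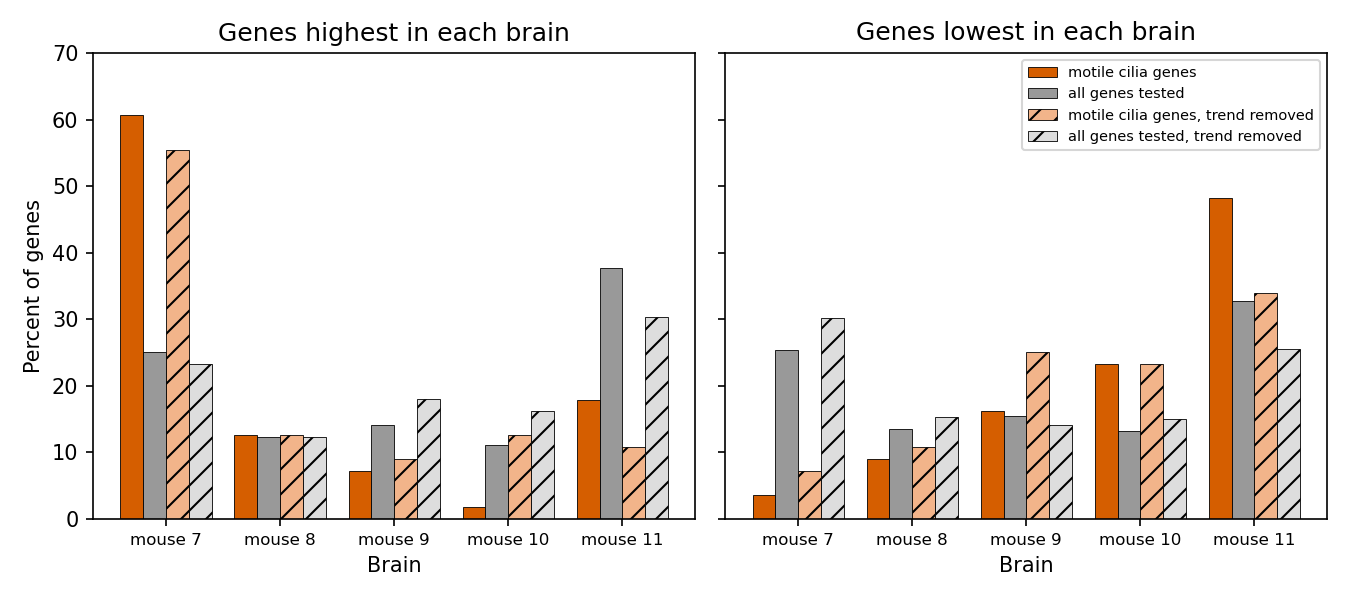
Percent of genes with their highest value (left) and lowest value (right) in each brain, for the 56 measured motile cilia genes and all 16318 genes tested, as counted (plain bars) and corrected for GC and length (hatched bars). Mouse 7 holds the highest value of 60.7% of the motile cilia genes and 25% of all genes, and of 55.4% and 23.3% in the hatched bars.

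The members were also counted by length and GC content, in classes set after the data were seen. Of the 24 measured members of at least 7000 bases, mostly dyneins and central apparatus genes, 19 were highest in mouse 7, against 1239 of all 2963 genes of that length. Of the 20 below 3000 bases, 6 were, against 1039 of 5879. By GC content, 11 of 14 members below 46% were highest in mouse 7 (78.6%, against 49.7% of all such genes). Between 46% and 52% there were 14 of 23 (60.9% against 21.5%), and from 52% up 9 of 19 (47.4% against 5.95%). After correction the shares of members in these classes were 57.1%, 56.5% and 52.6%, against 30.2%, 23.2% and 17.0% of all genes. Genes of at least 7000 bases made up 18.2% of all genes tested and 24 of the 56 measured members. The mean deviation in mouse 7 was 0.62 for the long members, against 0.17 for all genes of that length, and 0.05 for the short members, against -0.00 for all short genes. After correction the long members stood at 0.45 in mouse 7 and at -0.23 in mouse 11.

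**Figure D5:**
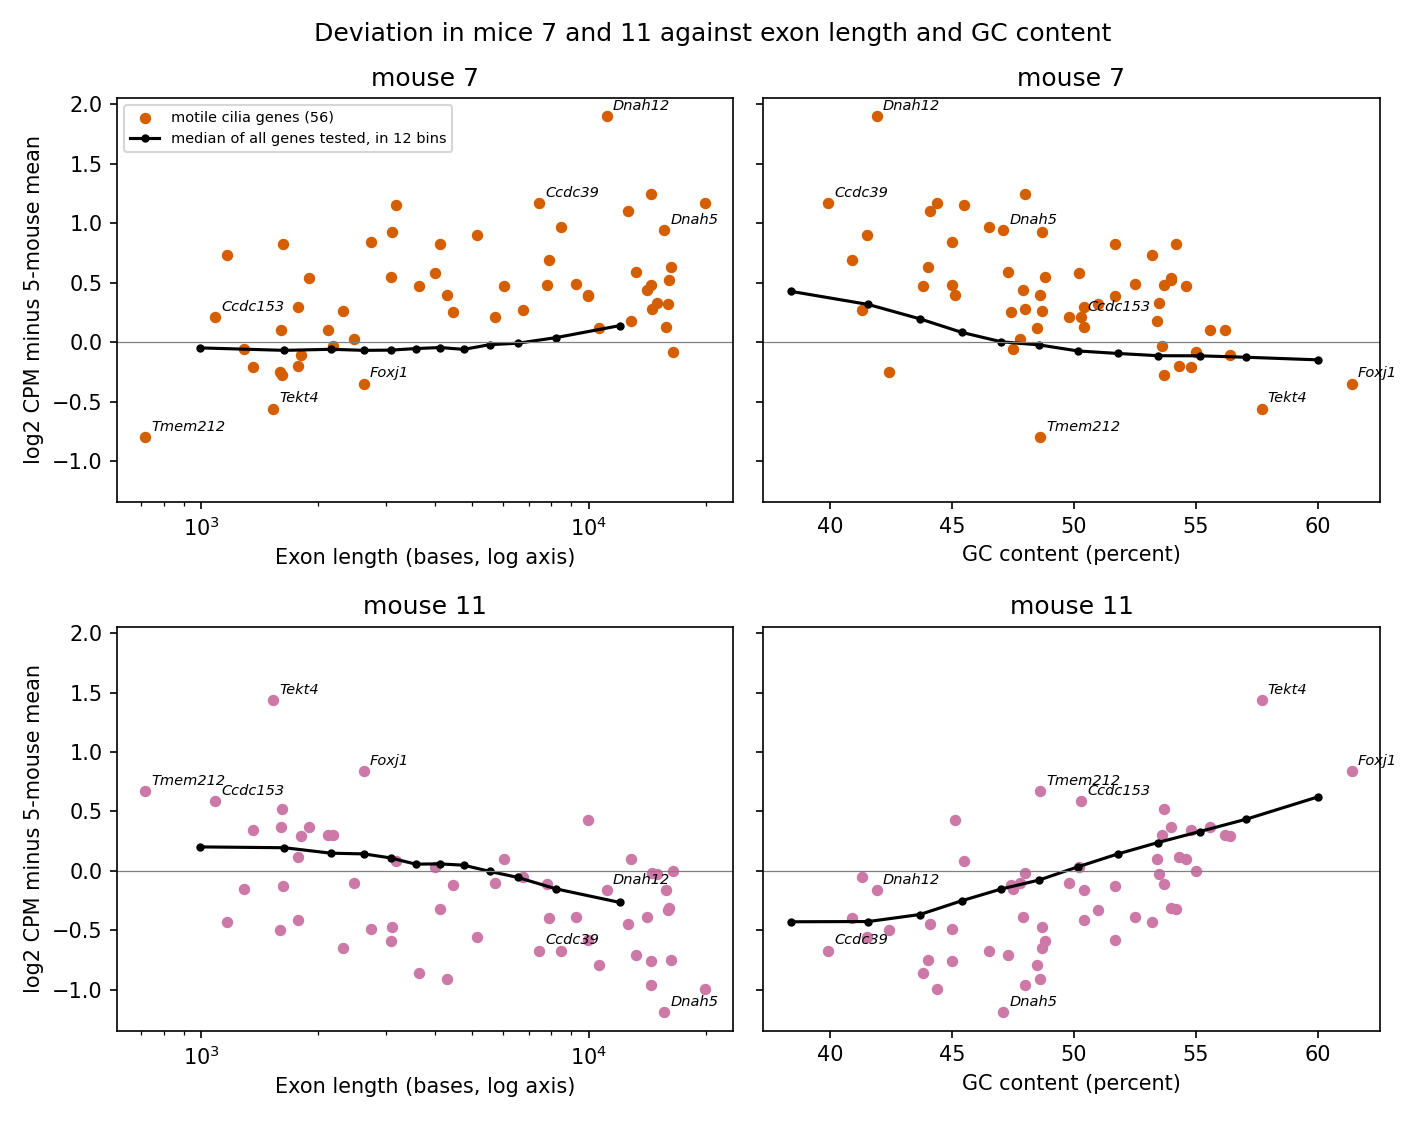
log2 CPM of each measured motile cilia gene in mouse 7 (top) and mouse 11 (bottom), minus its mean over the 5 brains, against exon length (left, log axis) and GC content (right), with the median of all genes tested in 12 bins as a line. In mouse 7 most points lie above the line, up to Dnah12 at 1.90, while Tmem212 (-0.80) and Tekt4 (-0.56) lie below it.

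Other ependymal and ciliary genes were measured beside the members, from lists of known markers. The 18 ependyma markers that are no members summed to 47.2, 47.8, 39.0, 47.4 and 55.7 RPKM, led by Pltp, a lipid transfer protein at 26.3 ± 4.52, and Cd24a, a surface protein at 5.33 ± 1.32. The 14 of them that were measured had mean deviations of 0.17, 0.14, -0.37, -0.06 and 0.12, with mouse 7 highest and mouse 9 lowest. Of the 14, 6 (42.9%) were highest in mouse 7, against 25% of all genes tested, and 7 (50%) after correction, against 23.3%. Mouse 9 was the lowest brain for 6 (42.9%), against 15.4% of all genes, and for 5 (35.7%) after correction, against 14%. Mia, at 1, 0, 0, 1 and 0 counts, was at the limit of detection. None of the 14 had an unadjusted p below 0.05 in edgeR.

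Of 14 ciliogenesis factors 10 were measured, with mean deviations of 0.45, -0.00, -0.07, -0.17 and -0.20. Rfx3, an X-box binding factor, had 8.39, 5.38, 4.95, 4.61 and 3.45 RPKM, and Rfx4, of the same family, was even at 5.21 ± 0.311. Mcidas, an inducer of multiciliated cell fate, held 2, 0, 0, 1 and 9 counts and Foxn4 a single count in 1 brain. Rfx3 thus followed the order of Dnah5 and Dnah9 over the brains, which is a description of 5 values. Ttc14, given above, had that order too. Rfx4 did not, and neither did Rfx2, which had 1.28, 0.639, 0.933, 0.799 and 1.31 RPKM. By edgeR 0 of the 10 were called, and Cep152, named after its values were seen, was the 1 gene with an unadjusted p below 0.05.

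Of 66 listed symbols for other axonemal parts and their assembly 61 were matched to genes. Of those genes 51 were measured and 30 reached 1 RPKM, and Zmynd10, Enkur and Meig1 are also among the ependyma markers above. Dnal1, a dynein light chain, led with 20.4 ± 4.37 RPKM, followed by Gas8, of the nexin-dynein regulatory complex, with 8.60 ± 1.71. Their mean deviations were 0.21, 0.11, -0.07, -0.07 and -0.18, and 16 of the 51 (31.4%) were highest in mouse 7, against 25% of all genes, and 16 in mouse 11, against 37.6%. After correction these counts were 18 and 10, against 23.3% and 30.3%. Genes of intraflagellar transport and the primary cilium, 41 in all, summed to 524, 485, 464, 435 and 393 RPKM, with Arl3 and Kifap3 highest. Of these 22 (53.7%) were highest in mouse 7, as counted and after correction, against 25% and 23.3% of all genes. For 26 (63.4%) mouse 11 was the minimum, against 32.7%, and for 23 (56.1%) after correction, against 25.5%. In edgeR 5 of the 41 had an unadjusted p below 0.05, against 4.82% of all genes tested, with 0 called after adjustment. Those 5 were Ift74, Ift81, Dync2h1, Rpgrip1l and Cep290, named after their values were seen. None of the 51 other axonemal genes had an unadjusted p below 0.05.

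Lists of sperm and testis, choroid plexus and tanycyte genes were compared in the same libraries. Among 27 sperm and testis genes 7 were measured, led by Odf2 at 6.60 ± 1.17 and Acr at 1.20 ± 0.549 RPKM, and Tnp1, Tnp2, Akap4, Ldhc, Pgk2 and Smcp had no count in any library. The choroid plexus, whose epithelium also carries cilia, was represented by 20 genes led by Ttr and Enpp2, which summed to 639, 491, 592, 537 and 642 RPKM. Their mean deviations lay between -0.15 and 0.09. Mouse 7 was highest for 5 of the 20 (25%), the same share as among all genes tested (25%). The 13 measured tanycyte genes had mean deviations between -0.07 and 0.06.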

How the data were processed

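Gene counts (whole numbers) and RPKM of 47729 genes in 5 libraries were deposited by the authors. GRCm38 was the build, and the tools were featureCounts 1.4.6-p4, STAR 2.4.1d and CASAVA 1.7, according to the submitters' processing notes. Annotation release and strand setting are not given in the sources used here. The deposited RPKM did not use each library's own total (lengths implied by the 5 values were within 1% for 0 of 12729 genes checked), so RPKM were recomputed with own totals and the implied lengths. Symbols, coordinates and GC content are from GENCODE M21 (47310 genes matched, with 0.0469% of counts unmatched).

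Counts were analysed in edgeR 4.0.16 and limma 3.58.1, with DESeq2 1.42.0 as an alternative. Settings were TMM scaling, a mean count of at least 10, log2 CPM with prior count 1, dispersions against a robust F distribution and threshold 0.05. The test was also run on simulated counts, with large rises in 1 mouse in genes of higher count than some members. That run cannot show whether smaller differences, or those at low counts, would be found. GC and length trends were splines fitted per library. Alternatives changed scaling, filter, gene length, trend removal and left-out mice. Sequences are from RefSeq.

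Members, lists and tests were chosen with earlier results of these data known. Named with all values were 9 single genes, each group's highest, lowest and most variable measured member, and genes with 1 brain far from the rest.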

Additional observations from a re-analysis of the deposited data

Results flagged for a closer look

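For 11 of the 56 measured genes the value of 1 brain lay apart, in that its gap to the nearest other brain exceeded 0.71 of the whole range (Dixon's criterion for 5 values). Chance flags about 1 in 20 groups of values, and 12% of all 16318 genes tested met the criterion. The criterion was applied to RPKM without correction for GC and length. Which brain stood apart was not counted over all flagged genes, so the next count has no background share. In 9 of the 11 genes the brain was mouse 7, which was the highest. These were Rsph1 at 3.87 RPKM, Ccdc39 at 3.69, Cfap65 at 1.49, Cfap100 at 1.29, Cfap161 at 0.807, Dnah11 at 0.560, Dnah7c at 0.443, Dnah12 at 0.359 and Spag16 at 0.190 RPKM. Rsph3b stood apart in mouse 11 at 1.72 RPKM, where the other brains had 1.04 to 1.21, and Dnah17 in mouse 9 at 0.151 RPKM. The values of Dnah17 rest on 30, 30, 39, 29 and 36 counts. It shares 93 exon bases with Pgs1 on the opposite strand, a gene at a mean of 11.5 RPKM. The range over the brains was 8.92 times in Dnah12, 5.06 in Dnah11 and 1.34 in Spag16, whose values rest on 15 to 20 counts.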

How the results depend on the processing

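The count of 0 members called variable held under each of the scalings, filters, trend removal and left-out mice tried, although 230 of 28335 genes were called when no filter on low counts was set. The SD of the mean log2 CPM (0.24) was between 0.20 and 0.32 under the other scalings, count filters and the trend removal, 0.22 on log2 RPKM, 0.17 over the 33 measured members at a mean of at least 0.5 RPKM, and between 0.10 (without mouse 7) and 0.30 (without mouse 8) when 1 mouse was left out. It was 0.24 without the 4 widely expressed Cfap genes and 0.22 without members that share exon bases with a gene at a mean count of at least 10, choices made after seeing the data. The count of members highest in mouse 7 (34) was 18 of 25 with a mean count of at least 50, where fewer genes are tested, with 25.2% of all genes highest there. With the other scalings it was 35 and 36. The mean levels of 7 genes moved beyond their SD with the M21 exon length, of which Cfap20, Ccdc153, Rsph3b and Dnah8 are given above, Hydin at 0.315, Rsph3a at 0.810 and Cfap43 at 0.391 RPKM. No paired analysis was possible because there is 1 group. With 5 brains and a median of 0.479 RPKM, depth limits what could be seen for single genes.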
